A study of Mus musculus with 8 samples.

Results

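Adrenal glands of mice lacking the ubiquitin ligase Siah1a were compared with wild-type glands after an injection of adrenocorticotropic hormone (ACTH). The comparison takes 4 of the 8 RNA sequencing libraries of the study, 2 labelled Siah1a -/- and 2 labelled wild type, by their genotype and treatment labels. All 4 animals carried the strain label 129SVEV and had received ACTH at 100 µg/kg into the peritoneum 1 hour before the gland was taken, and in each genotype the labels name 1 male and 1 female. The other 4 libraries have the same 4 combinations of genotype and sex label with no agent, and enter here only as the untreated reference. Each library is taken here as 1 animal and called 1 gland below, though its title does not say whether 1 or both glands were used. The age of the animals, the deleted part of Siah1a and the relation of the controls to the knockouts are not stated in the labels. The title of the series names the organization of the gland and hyperaldosteronism as its subject.

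ACTH is the pituitary peptide that drives the adrenal cortex. It binds the melanocortin 2 receptor, raises cyclic AMP and activates protein kinase A, which within minutes moves cholesterol into the mitochondria for steroid synthesis and within an hour induces immediate early genes such as those of the NR4A nuclear receptors. SIAH proteins are RING-type ubiquitin ligases that mark other proteins for breakdown by the proteasome. Cortical cells take cholesterol from lipoproteins and also make it by the mevalonate pathway, whose genes are switched on by the transcription factor SREBP-2 when sterols run low.

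The 4 libraries held 13144910 to 29568950 estimated counts, and the wild-type libraries were the deeper pair. Genes 8 or more times higher in 1 of the 4 libraries than in each of the other 3 were set aside, 2363 of 18846 genes, of which 277 would have passed the filter on low counts. The wild-type female library held 234 of these 277, with 12.2% of its counts, and the 14 markers of the liver list were all among the genes set aside. Its summed level of liver markers was 74727 CPM and lay between 166 and 368 CPM elsewhere. Here CPM are counts per 1000000 scaled counts of the tested genes, a total that leaves out the genes set aside. Just inside the limit, Hoxc10 stood 7.94 times above the next library and was kept, whereas Kif5a at 8.01 times was set aside. After this step and the count filter, 14488 genes were tested. The knockout male stood apart: on log2 CPM its Pearson's r across genes with the knockout female was 0.914, whereas the knockout female had 0.953 with the wild-type male and 0.934 with the wild-type female. Markers of the adrenal cortex summed to 33581 to 51252 CPM in the 4 libraries, so the label of the tissue holds in each.

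No gene passed an adjusted p of 0.05 in edgeR's quasi-likelihood test with Benjamini-Hochberg adjustment (0% of the tested genes, smallest adjusted p 0.353), and 1503 genes had an unadjusted p under 0.05, 597 higher and 906 lower in the knockout. DESeq2, which rests on another estimate of the spread, called 349 genes (2.41%), 137 higher and 212 lower, while limma-voom called 0. What follows therefore describes levels and how far the 2 glands of each genotype stood apart, and a gene is called higher or lower where the 2 knockout and the 2 wild-type libraries did not overlap, which means the same direction in all 4 cross pairs of 1 knockout and 1 wild-type library. On this measure 2934 genes were higher in the knockout (20.3%) and 3528 lower (24.4%). With a gap of at least 2-fold in every cross pair, 254 genes were higher (1.75%) and 705 lower (4.87%). Of the 705, 246 were at 0 in both knockout libraries, which are the shallower pair, and among the 10293 genes with an average of at least 3 on the log2 CPM scale 58 were higher (0.563%) and 159 lower (1.54%) by that gap. The p-values measure the spread between these 4 animals, and with 2 glands a genotype the fit had 2 residual degrees of freedom.

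**Figure D1:**
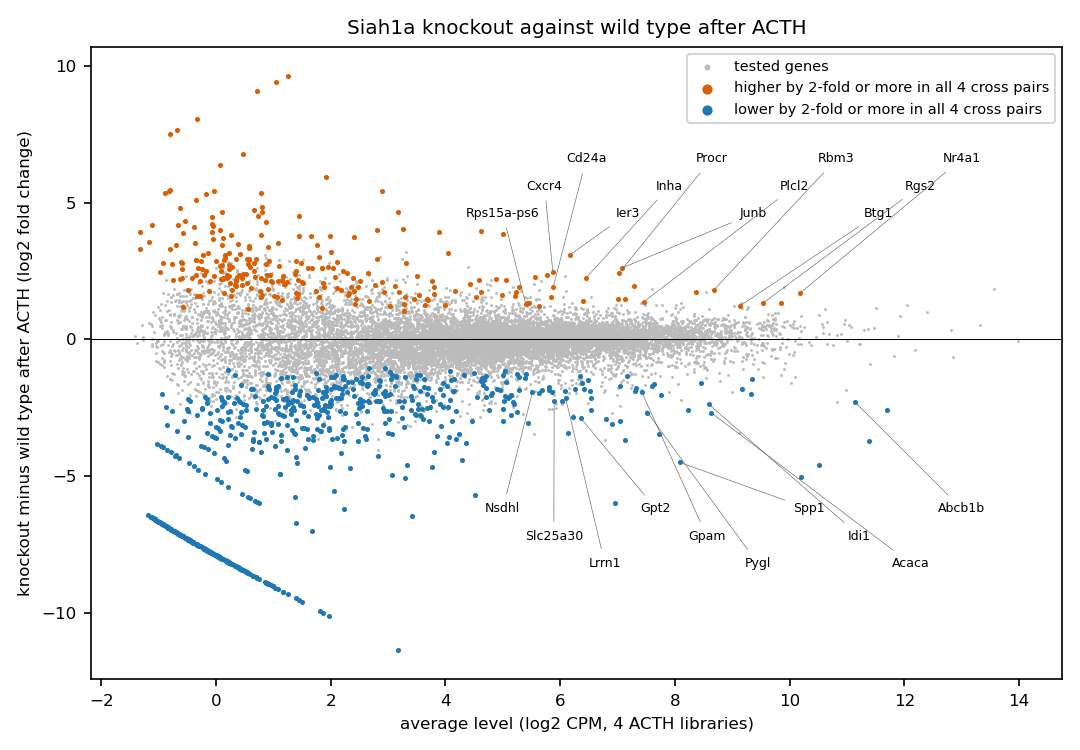
Average level (x axis, log2 CPM over the 4 libraries) against the knockout minus wild-type difference after ACTH (y axis, log2 fold change) for the 14488 tested genes. Orange and blue points are the 254 genes higher and the 705 genes lower by at least 2-fold in all 4 cross pairs, the lower ones at 0 in both knockout libraries form the oblique line at the lower left, and the labelled genes are among those with the smallest p at an average log2 CPM of 3 or more.

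Siah1a itself, the deleted gene (chromosome 8, 86720454 to 86746006, RefSeq annotation of GRCm38.p6), was listed at 19.0 CPM in the knockout male and 17.4 CPM in the knockout female after ACTH, against 33.0 CPM in the wild-type male and 32.7 CPM in the wild-type female. Transcript counts were thus lower but not absent in the libraries labelled knockout, with a log2 fold change of -0.85 (SE 0.26, edgeR adjusted p = 0.459). In untreated glands it stood at 25.7 and 21.5 CPM in the knockout and at 27.2 and 26.4 CPM in the wild type, a log2 difference of -0.18 (SE 0.30). Since the deleted part is not known here, reads from the remaining exons or from the near-identical Siah1b could be counted to Siah1a, and the gene checks the labels only in part. Siah1b was low, at 1.42 and 2.38 CPM in the knockout and 5.70 and 3.24 CPM in the wild type. Siah2, the third ligase of the family, was at 33.6 and 32.3 CPM in the knockout and 27.5 and 28.1 CPM in the wild type, a log2 difference of 0.25 (SE 0.24), and Siah3 was among the genes set aside.

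The genes of cholesterol synthesis formed the most one-sided of the larger lists. Of its 24 tested members, 22 were lower in the knockout and 0 were higher, against 24.4% of all tested genes lower, and 10 were lower by at least 2-fold in every cross pair, against 4.87%. Over its members the median log2 fold change came to -1.31, beside -0.03 over all tested genes, and DESeq2 called 12 members, all lower. Most steps of the pathway are in it, from the synthesis of mevalonate through the isoprenoid units and squalene to the last reductions that give cholesterol.

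Hmgcs1, an early synthase of the mevalonate pathway, was at 354 CPM in the knockout male, 339 CPM in the knockout female, 978 CPM in the wild-type male and 917 CPM in the wild-type female. The 2 glands of each genotype differed by far less than the genotypes did. Idi1, the isomerase of the isoprenoid building blocks, was at 133 and 113 CPM in the knockout male and female and at 709 and 574 CPM in the wild-type male and female (log2 fold change -2.38, SE 0.22, edgeR adjusted p = 0.353, DESeq2 adjusted p = 7.67e-19). Fdps, the next enzyme of the pathway, stood at 127 and 42.9 CPM against 410 and 610 CPM. In each of these genes both knockout glands were below both wild-type glands by more than 2-fold.

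The late enzymes showed the same order of libraries. Nsdhl, a demethylating dehydrogenase, was at 17.7 and 19.9 CPM against 76.5 and 66.6 CPM, and Cyp51, the lanosterol demethylase, at 67.1 and 75.4 CPM against 275 and 218 CPM. Neither gene overlapped between genotypes. The regulators and the cholesterol carrier in the list were also lower, with Insig1, which holds SREBP in the endoplasmic reticulum, at 104 and 89.1 CPM against 370 and 222 CPM. Srebf2, which encodes SREBP-2, was at 39.9 and 27.4 CPM against 81.3 and 63.5 CPM, a smaller gap. Dhcr7, which encodes a late reductase, overlapped between genotypes, with 1062 and 490 CPM against 757 and 645 CPM.

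**Figure D2:**
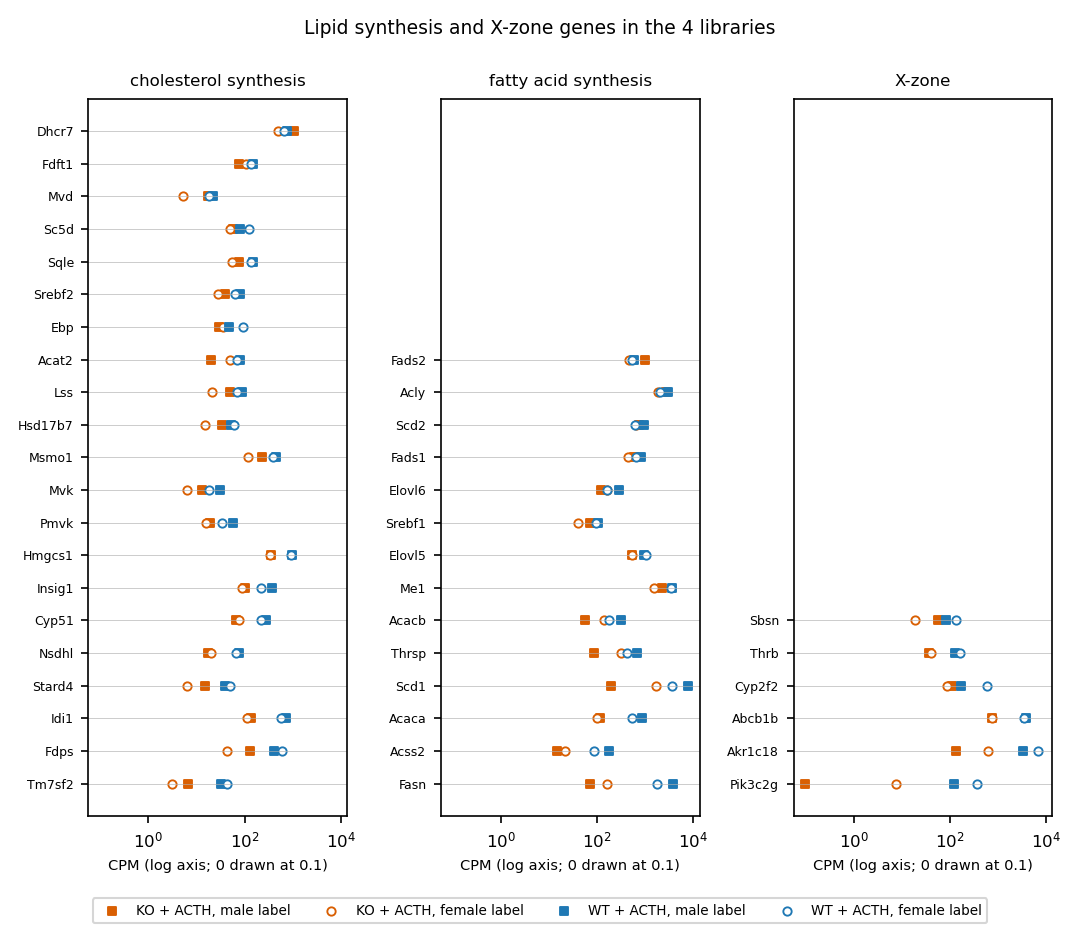
Level in each of the 4 ACTH libraries (CPM, log axis) for tested members of 3 lists, sorted by fold change, with knockout in orange, wild type in blue, squares for animals labelled male and open circles for animals labelled female. In the cholesterol genes drawn other than Dhcr7, and in all 6 X-zone genes, both orange symbols lie left of both blue ones, and the gap is widest for Fasn and Pik3c2g in their lists.

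Fatty acid synthesis, which shares regulators of the SREBP family, had 14 tested members, of which 11 were lower (24.4% of all tested genes), 0 higher and 4 lower by at least 2-fold in every cross pair (4.87% of all), with a median log2 fold change of -0.87. Fasn, the fatty acid synthase, was at 71.5 CPM in the knockout male and 158 CPM in the knockout female, against 3830 CPM in the wild-type male and 1725 CPM in the wild-type female. Its smallest gap between a knockout and a wild-type gland was 10.9-fold, and the log2 fold change was -4.60 (SE 0.63, edgeR adjusted p = 0.439, DESeq2 adjusted p = 2.24e-17). Acaca, the carboxylase that commits carbon to fatty acids, was at 112 and 99.3 CPM against 838 and 517 CPM. Acss2, which makes acetyl-CoA from acetate, was at 14.6 and 21.4 CPM against 173 and 84.7 CPM. Both were lower in each knockout gland by more than 3-fold. Acly, which makes acetyl-CoA from citrate, overlapped between genotypes, with 2656 and 1828 CPM against 3023 and 2044 CPM, as did Fads2 and Scd2.

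Fat around the gland also expresses these enzymes, so the 16 adipocyte markers were read beside them. Their summed level was 3435 CPM in the knockout male, 12175 CPM in the knockout female, 11248 CPM in the wild-type male and 8178 CPM in the wild-type female. The sum in the knockout female was the highest of the 4, with Fabp4 at 3429 CPM and Lpl at 2806 CPM there. Of the 16 markers 4 (25%), Plin4, Car3, Retn and Dgat2, were lower in both knockout glands, near the 24.4% of all tested genes. None was higher, against 20.3%. The median log2 fold change of the 16 was -0.50, the same direction as the lipid genes. Without the knockout male 7 of the 16 were higher and 4 lower, against 5260 and 6075 of all 14488 genes. Without the knockout male, 18 of the 24 cholesterol genes and 6 of the 14 fatty acid genes were lower by at least 2-fold in the remaining cross pairs, against 1690 of all 14488 genes. Leaving out a library removes cross pairs, so such counts cannot fall below the 10 and 4 found with all 4 libraries. In the knockout male the adipocyte sum was low, and Scd1, a desaturase abundant in fat, was at 196 CPM there, 1673 CPM in the knockout female, 7672 CPM in the wild-type male and 3627 CPM in the wild-type female. The part of the fat in these levels was not tested, and in whole glands fewer cells of a type cannot be told apart from less RNA per cell. Liver also makes cholesterol and fatty acids, and without the wild-type female, the library that held liver transcripts, 13 of the 24 cholesterol and 6 of the 14 fatty acid genes were lower by at least 2-fold, against 906 of all tested genes.

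Genes that bring in, store and export cholesterol were mixed. Of 11 tested members of that list 2 were higher (18.2%) and 4 lower (36.4%), none by 2-fold in every cross pair. Among all tested genes 20.3% were higher and 24.4% lower. Apoe, the apolipoprotein that carries lipid between cells, was at 486 and 731 CPM in the knockout and at 1269 CPM in the wild-type male and 4730 CPM in the wild-type female, where liver transcripts were found. Soat1, which esterifies cholesterol for storage, and Abca1, an exporter, overlapped between genotypes.

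The X-zone is the innermost cortical layer of young mice and lasts longer in females. All 6 tested markers were lower in the knockout after ACTH, 4 of them by at least 2-fold in every cross pair, and the median log2 fold change was -2.10. Of all tested genes 24.4% were lower, and 4.87% by that gap. Akr1c18, the steroid dehydrogenase that defines the zone, was at 134 CPM in the knockout male, 619 CPM in the knockout female, 3259 CPM in the wild-type male and 6635 CPM in the wild-type female. The sexes differed within each genotype, and the knockout female still lay more than 5-fold below the wild-type male (log2 fold change -3.72, SE 0.86, edgeR adjusted p = 0.459). Pik3c2g, a lipid kinase of the zone, was at 0 and 7.59 CPM against 124 and 358 CPM. Abcb1b, a transporter of the P-glycoprotein family, was at 769 and 753 CPM against 3851 and 3540 CPM (log2 fold change -2.28, SE 0.19, adjusted p = 0.353 in edgeR). Thrb, a thyroid hormone receptor, was at 37.4 and 40.4 CPM against 125 and 163 CPM. In Abcb1b and Thrb the animals of a genotype were close to each other whatever their sex label.

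Genes of the immediate early response, by contrast, were higher in the knockout. Of 31 tested members 16 were higher and 0 lower, against 20.3% of all tested genes higher, and 7 were higher by at least 2-fold in every cross pair, against 1.75%. The list's median log2 fold change was 1.05, and DESeq2 called 9 members, all higher. The remaining 15 members overlapped between genotypes, among them Egr1, Jun, Fosb and Myc.

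Promoters are shown for the member with the smallest p of each of these 2 lists that RefSeq's promoter table (GRCm38.p6) holds, since ACTH acts through cyclic AMP and sterols through SREBP-2, and both pathways have known recognition letters. Each is the stretch of 250 bases before the transcription start, 5' to 3' on the plus strand, chr15:101266596-101266845 for Nr4a1 and chr13:8885356-8885605 for Idi1. For Nr4a1 this start lies inside the annotated gene, which spans 101253902 to 101274795. Capitals mark TGACG, the core of the cyclic AMP response element, on either strand, so that CGTCA is its reverse complement.
Nr4a1: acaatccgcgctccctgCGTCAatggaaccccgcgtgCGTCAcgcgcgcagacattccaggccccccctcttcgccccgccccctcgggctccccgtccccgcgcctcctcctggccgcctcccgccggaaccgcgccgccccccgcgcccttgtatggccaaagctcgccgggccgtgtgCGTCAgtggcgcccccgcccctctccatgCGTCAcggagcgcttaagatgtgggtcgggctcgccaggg
Idi1: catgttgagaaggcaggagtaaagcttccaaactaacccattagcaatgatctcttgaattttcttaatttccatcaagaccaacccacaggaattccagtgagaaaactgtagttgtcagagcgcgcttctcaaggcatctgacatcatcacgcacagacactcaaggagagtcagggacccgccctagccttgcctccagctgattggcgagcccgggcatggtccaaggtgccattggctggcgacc
The Nr4a1 stretch holds the core 4 times, each on the minus strand, and the Idi1 stretch holds none of the letters searched. The same stretches of Ier3 and Nsdhl, the next members by p of the 2 lists in that promoter table, also hold none.

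The letters searched on both strands were TGACG, the full cyclic AMP response element TGACGTCA that contains it, TCACNCCAC (a sterol response element), CCACGTGG (an E-box) and AAAGGTCA (a nuclear receptor site of the NR4A kind). RefSeq windows, which add 50 bases after the start, were found for 23 of the 31 tested immediate early genes, for 17 of the 24 cholesterol genes and for 10992 of all tested genes. TGACG occurred in 15 of the 23 immediate early genes (65.2%), in 8 of the 17 cholesterol genes (47.1%) and in 34.1% of all tested genes with a window. The full element TGACGTCA was in 2 immediate early genes, Btg2 and Maff (8.70%), in 0 cholesterol genes and in 3.54% of all tested genes. TCACNCCAC was found in Hmgcs1 alone among the cholesterol genes (5.88%), in 0 immediate early genes and in 1.40% of all tested genes, and the remaining 2 motifs were in neither list. These are counts of letters in a short window and say nothing about binding.

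Nr4a1, a nuclear receptor that binds near steroidogenic genes and is among the fastest ACTH-induced genes, was at 1884 CPM in the knockout male and 1693 CPM in the knockout female, against 466 CPM in the wild-type male and 637 CPM in the wild-type female. Both knockout glands were above both wild-type glands by more than 2-fold (log2 fold change 1.70, SE 0.23, edgeR adjusted p = 0.453, DESeq2 adjusted p = 3.67e-08). Its relatives were less uniform, with Nr4a2 at 239 and 558 CPM against 157 and 157 CPM, while Nr4a3 overlapped between genotypes because the knockout male was at 376 CPM and the knockout female at 1147 CPM, against 418 and 438 CPM. Junb, a partner of FOS proteins in the AP-1 factor, was at 179 and 287 CPM against 27.8 and 48.7 CPM (log2 fold change 2.60, SE 0.40). Fos was at 74.2 and 35.5 CPM against 14.7 and 9.71 CPM. Ier3, a stress-induced early gene, had the largest difference of the list, 176 and 83.7 CPM against 12.5 and 18.1 CPM (log2 fold change 3.09, SE 0.45). The knockout female had the higher level of Junb and Nr4a2 and the knockout male that of Fos and Ier3, so that neither knockout gland carried the list alone. Btg2 and Csrnp1 were also higher by at least 2-fold in every cross pair, as was Cyr61, a secreted matrix protein induced by growth signals, with 75.6 and 109 CPM against 24.9 and 11.2 CPM.

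Feedback genes of the cyclic AMP pathway followed the same direction in part, with 11 of 24 tested members higher (45.8%) and 1 lower (4.17%). Of the 24, 3 were higher by at least 2-fold in every cross pair, and the median log2 fold change was 0.41. Of all tested genes 20.3% were higher, 24.4% lower and 1.75% higher by that gap. Rgs2, a G protein regulator that dampens receptor signalling, was at 1062 CPM in the knockout male and 1060 CPM in the knockout female, against 412 CPM in the wild-type male and 439 CPM in the wild-type female. Spread within each genotype was small, and the log2 fold change was 1.32 (SE 0.17, edgeR adjusted p = 0.424). Sik1, the salt-inducible kinase that restrains CREB coactivators, was at 221 and 195 CPM against 53.9 and 95.6 CPM, and Gem, a small GTP-binding protein, at 399 and 614 CPM against 114 and 194 CPM. Pde10a, which breaks down cyclic nucleotides, was at 86.6 and 61.0 CPM against 31.2 and 21.5 CPM, just short of a 2-fold gap. Subunits of protein kinase A differed less and in both directions: Prkar1a, a regulatory subunit, was at 1006 and 862 CPM against 667 and 675 CPM, whereas Prkaca, a catalytic subunit and the single lower member, was at 139 and 109 CPM against 187 and 158 CPM. Crem, whose short forms shut the response off, overlapped between genotypes.

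**Figure D3:**
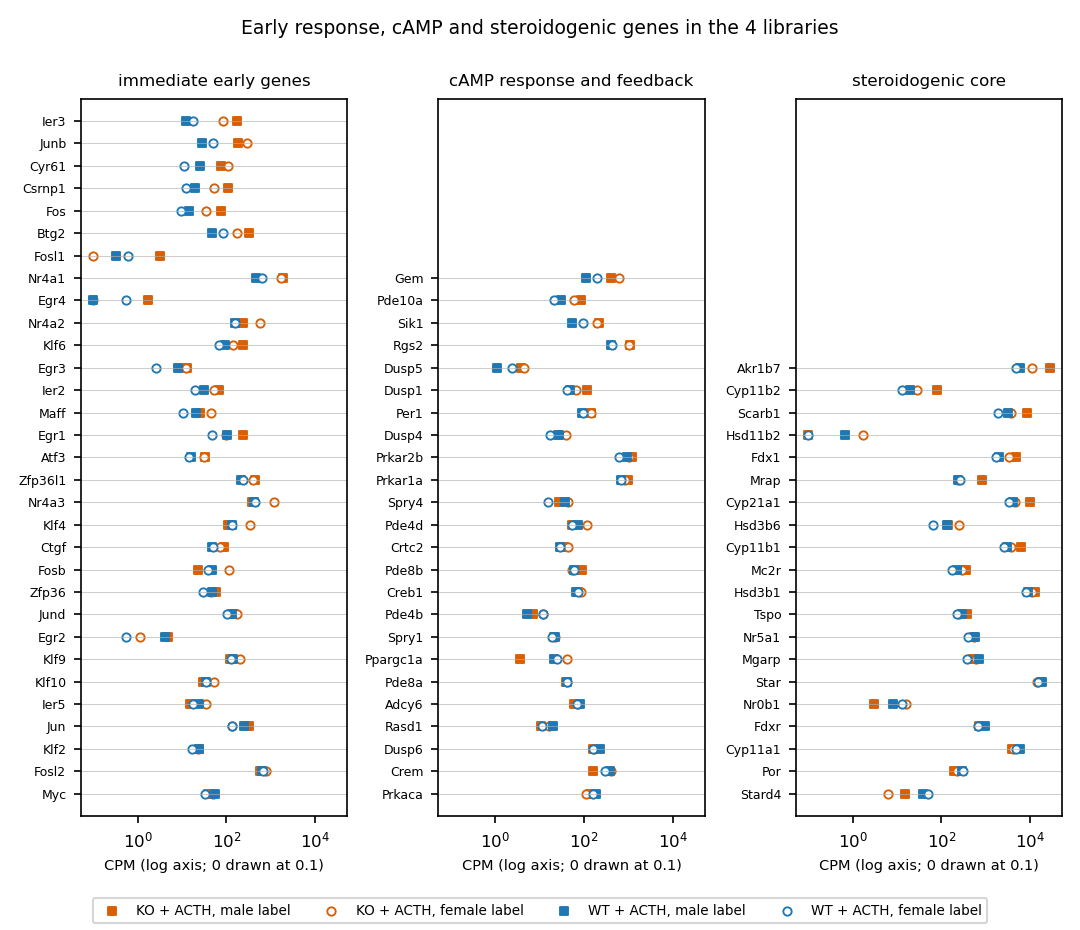
Level in each of the 4 ACTH libraries (CPM, log axis, values of 0 drawn at 0.1) for every tested member of the immediate early, cyclic AMP and steroidogenic lists, with the same symbols as for the lipid genes. Both orange symbols lie right of both blue ones in 16 of 31 immediate early genes, 11 of 24 cyclic AMP genes and 9 of 20 steroidogenic genes. Over all tested genes the share was 20.3%.

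Steroidogenic genes had smaller differences, with 9 of 20 tested members higher (45%) and 3 lower (15%), beside 20.3% and 24.4% of all tested genes. Higher by at least 2-fold in every cross pair were 0 members, and the median log2 fold change was 0.60. The first 2 steps of steroid synthesis were not among the higher genes. Star, which carries cholesterol into the mitochondrion, overlapped between genotypes, with 17293 and 14126 CPM against 18579 and 14529 CPM, and Cyp11a1, the side-chain cleavage enzyme, was at 3945 and 4053 CPM against 5827 and 4756 CPM, lower in both knockout glands. Enzymes further down were higher: Cyp11b1, the 11-beta-hydroxylase that makes corticosterone, was at 6188 and 3763 CPM against 3052 and 2503 CPM, and Cyp21a1, the 21-hydroxylase, at 9871 and 4510 CPM against 4016 and 3249 CPM. Fdx1, the electron carrier of the mitochondrial enzymes, was at 4729 and 3283 CPM against 1983 and 1658 CPM (log2 fold change 1.14, SE 0.26, edgeR adjusted p = 0.459). Akr1b7, an ACTH-dependent aldose reductase of the fasciculata, was at 27601 CPM in the knockout male and 10689 CPM in the knockout female, against 5813 and 4852 CPM. The knockout male was the highest library for each of these 4 enzymes and carriers, and without it the log2 difference of Akr1b7 was 1.00 instead of 1.84. Mc2r, the ACTH receptor, was at 353 and 288 CPM against 229 and 174 CPM. Stard4, a cytosolic cholesterol carrier that is also on the cholesterol list, was the single steroidogenic gene lower by at least 2-fold throughout, with 15.3 and 6.21 CPM against 38.6 and 48.7 CPM.

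The zona glomerulosa is the outer layer that makes aldosterone. Its genes were higher in 8 of 17 tested members (47.1%) and lower in 1 (5.88%), none by 2-fold in every cross pair. The shares over all tested genes were 20.3% and 24.4%. Cyp11b2, the aldosterone synthase, was at 78.2 CPM in the knockout male, 28.9 CPM in the knockout female, 19.6 CPM in the wild-type male and 12.8 CPM in the wild-type female (log2 fold change 1.73, SE 0.55, edgeR adjusted p = 0.459). Most of this difference lay in the knockout male, and without that library the log2 difference was 0.84. Agtr1a, the angiotensin receptor of these cells, was at 411 and 373 CPM against 219 and 123 CPM, and Dab2, an endocytic adaptor of the zone, at 650 and 1031 CPM against 425 and 349 CPM. The potassium channel Kcnk3, the calcium channel Cacna1h and the signals Wnt4 and Shh overlapped between genotypes. Of 20 WNT and Hedgehog genes 2 were higher and 2 lower, 10% each, below both shares over all tested genes. In that list Sfrp4, a secreted WNT antagonist, was at 0 and 0.0767 CPM in the knockout, under the floor of 3 counts. In the wild type it was at 2.04 and 2.70 CPM.

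The circadian clock had members on both sides, 6 of 18 higher (33.3%) and 5 lower (27.8%), beside 20.3% and 24.4% of all tested genes. Arntl, the BMAL1 subunit that drives the clock's output, was at 74.8 and 49.2 CPM in the knockout and at 13.5 and 19.6 CPM in the wild type (log2 fold change 1.90, SE 0.34). Its output gene Dbp was at 14.1 and 10.7 CPM against 62.0 and 41.9 CPM, and Bhlhe40, a repressor of the clock, at 36.9 and 38.0 CPM against 102 and 160 CPM. These genes cycle over the day, the labels give no hour of collection, and its part in these values was not tested.

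Another 5 lists had median log2 fold changes between -0.13 and 0.30, and their counts stand beside 20.3% of all tested genes higher and 24.4% lower. In hypoxia signalling, where SIAH proteins target prolyl hydroxylases, 3 of 20 tested members were higher and 7 lower, with a median of -0.03, and Hif1a itself was at 112 and 130 CPM against 133 and 157 CPM. Egln1, a prolyl hydroxylase, was at 55.7 and 70.8 CPM against 89.6 and 77.8 CPM, while the hydroxylases Egln2 and Egln3 overlapped between genotypes. Ldha, a glycolytic target of HIF, was at 165 and 291 CPM against 401 and 906 CPM. The 3 higher members were Kdm3a, Ddit4 and Slc2a1, the last at 50.8 and 45.0 CPM against 28.0 and 31.1 CPM. In the PIAS and SUMO pathway 9 of 16 members were higher and 0 lower, but the median was 0.11, 5 were higher when libraries were scaled by their totals, and Pias1 was at 41.4 and 44.6 CPM against 34.2 and 38.2 CPM. Of 22 heat shock and unfolded protein genes 10 were higher and 1 lower, with the mitochondrial chaperone Hspe1 at 1265 and 817 CPM against 537 and 551 CPM. Of 17 glucocorticoid-responsive genes 6 were higher, 0 were lower and 11 overlapped; the kinase Sgk1 was at 428 and 488 CPM against 313 and 189 CPM. Among 23 antioxidant genes 2 were higher, 5 were lower, and the single one with a 2-fold gap was Aldh1a1, a retinal dehydrogenase, at 18.9 and 30.8 CPM against 141 and 283 CPM (log2 fold change -3.09, SE 0.46, edgeR adjusted p = 0.459).

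**Figure D4:**
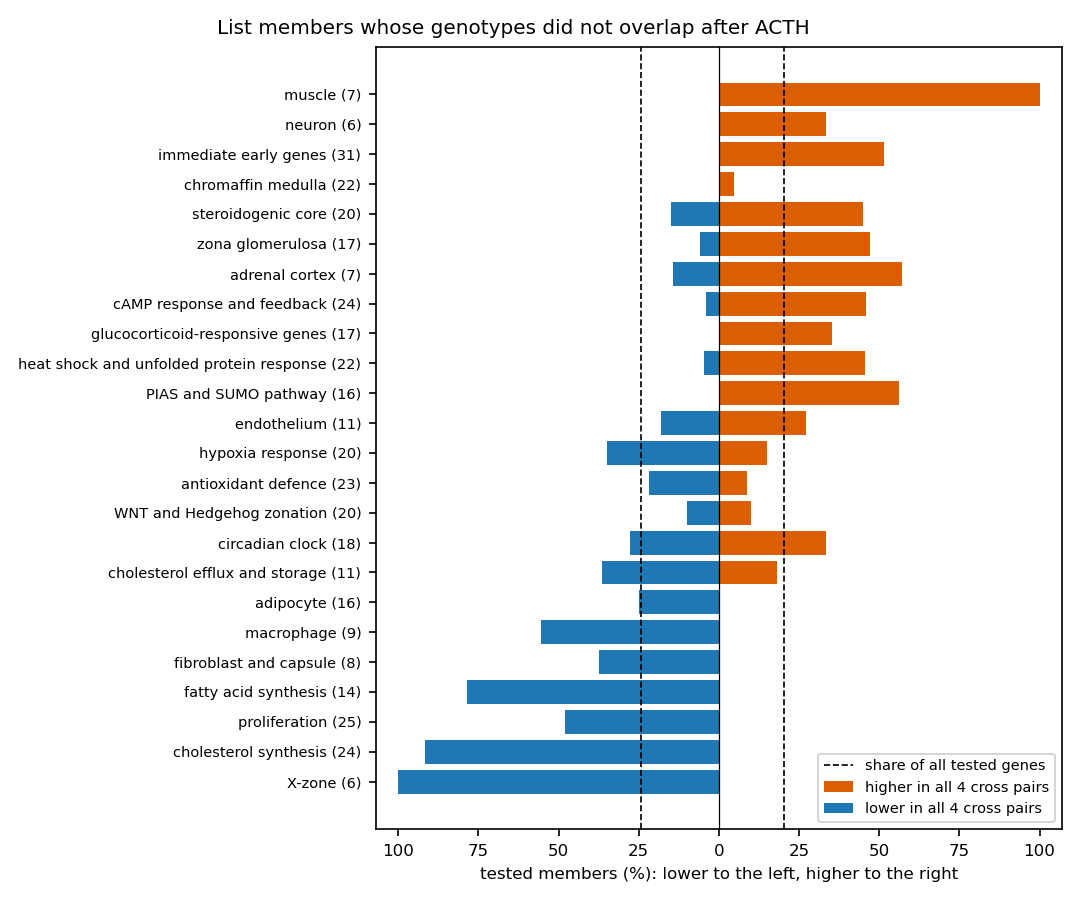
Share of the tested members of each list (in parentheses, their number) that were higher (right) or lower (left) in both knockout libraries than in both wild-type libraries, in percent. Dashed lines mark the shares of all tested genes, 20.3% higher and 24.4% lower, and the cholesterol list reaches furthest to the left among lists of more than 10 genes.

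Ranked by p over all genes with an average log2 CPM of 3 or more, the foremost lower gene was Spp1, which encodes the secreted matrix protein osteopontin, at 17.9 and 27.5 CPM in the knockout and 452 and 577 CPM in the wild type (log2 fold change -4.50, SE 0.32, edgeR adjusted p = 0.353). Every knockout gland was at least 16.4-fold below every wild-type gland. Lower genes that followed among the first 12 were Abcb1b, Slc25a30, Idi1, Pygl, Gpam, Lrrn1, Acaca, Gpt2 and Nsdhl, which include enzymes of cholesterol, fatty acid and glycerolipid synthesis. Slc25a30, a mitochondrial carrier, was at 20.2 and 20.4 CPM against 103 and 91.0 CPM, and Pygl, a glycogen phosphorylase abundant in liver, at 57.2 and 41.3 CPM against 272 CPM in the wild-type male and 358 CPM in the wild-type female. Gpam, the first enzyme of triglyceride synthesis, was at 79 and 63.6 CPM against 252 and 285 CPM. In the wild-type male liver markers summed to 287 CPM, and Pygl and Gpam were above each knockout gland there. The part of the liver RNA in their levels was not tested. The foremost higher gene was Procr, the endothelial protein C receptor, at 239 and 207 CPM in the knockout and 42.5 and 39.7 CPM in the wild type (log2 fold change 2.44, SE 0.19, edgeR adjusted p = 0.353). It was followed by Rgs2, Nr4a1, Rbm3, Ier3, Inha, Cxcr4, Junb, Btg1, Cd24a, Rps15a-ps6 and Plcl2, none of which passed in edgeR. Inha, the inhibin alpha subunit, was at 112 and 177 CPM against 36.4 and 25.2 CPM, and Cxcr4, a chemokine receptor, at 78.7 and 121 CPM against 22.7 and 13.7 CPM. Rps15a-ps6 is a ribosomal protein pseudogene, and its reads may belong to the parent gene.

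Of the marker lists, skeletal muscle stood furthest apart between genotypes. The counts below stand beside 20.3% of all tested genes higher, 24.4% lower, and 1.75% and 4.87% higher and lower by at least 2-fold. All 7 muscle genes were higher in both knockout glands by at least 2-fold, summing to 64.9 and 102 CPM against 3.10 and 6.55 CPM, and Myh4, a fast myosin chain, was at 6.83 and 1.99 CPM with 0 counts in both wild-type libraries, where 3 counts would be 0.122 and 0.116 CPM. In untreated glands the 7 genes summed to 2.77 and 7.10 CPM in the knockout and 22.4 and 3.37 CPM in the wild type, with 3 to 5 of them at 0 in each library, so untreated levels of most members are too low to compare. Chromaffin medulla markers summed to 8685 CPM in the knockout male but 2356 CPM in the knockout female, against 5176 and 3225 CPM, and of 22 genes Penk alone, the enkephalin precursor, was higher in both knockout glands, at 69.6 and 47.2 CPM against 22.1 and 13.3 CPM. Neuronal markers summed to 498 CPM in the knockout male and to 29.6 to 50.9 CPM in the other 3 libraries. In this male, proliferation genes were low, with Top2a at 14.5 CPM against 72.8 CPM in the knockout female, 74.3 CPM in the wild-type male and 104 CPM in the wild-type female, and 12 of the 25 genes of that list were lower in both knockout glands, none by 2-fold. Macrophage genes were lower in 5 of 9 (55.6%), with sums of 195 and 360 CPM against 402 and 370 CPM, and fibroblast and capsule genes in 3 of 8 (37.5%). Endothelial genes were higher in 3 of 11 (27.3%) and lower in 2 (18.2%), near the shares of all tested genes. Among them Esm1, a secreted endothelial proteoglycan, was at 40.2 and 29.3 CPM against 12.9 and 10.6 CPM. Xist and Ddx3y followed the sex labels in these 4 libraries. With the knockout first, Xist was at 5.98 and 31.8 CPM in the males and 253 and 768 CPM in the females. Ddx3y was at 377 and 310 CPM in the males and at 3.53 and 13.4 CPM in the females.

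**Figure D5:**
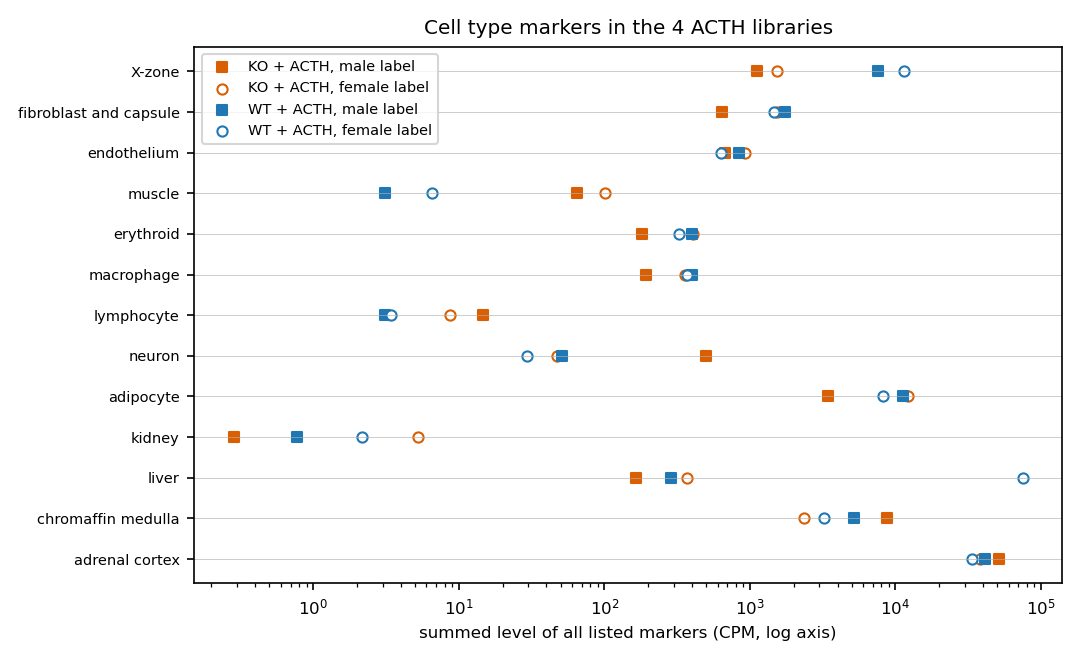
Summed level of all listed markers of each cell type and of the X-zone in the 4 ACTH libraries (CPM, log axis), with knockout in orange, wild type in blue, squares for male and open circles for female labels. Liver stands out in the wild-type female and neuron in the knockout male, while muscle and X-zone are the lists in which the genotypes lie farthest apart.

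Untreated glands of the same genotypes show how much of this was present without ACTH. The untreated levels below are scaled with all 8 libraries, and 1 of them, the wild-type male, has Xist at 400 CPM and Ddx3y at 3.15 CPM, against its label. The same library held kidney transcripts. Its 8 kidney markers summed to 2269 CPM, against 1.20 to 8.94 CPM in the other 3 untreated libraries. It also had the highest untreated sums of adipocyte and liver markers. Adipocyte markers summed to 9512 CPM there and to 4535 CPM in the untreated wild-type female. In the untreated knockout male and female they summed to 5241 and 4253 CPM. Liver markers summed to 845.6 CPM there, 286.8 CPM in the untreated wild-type female, and 206.8 and 136.5 CPM in the untreated knockouts. The untreated wild-type male enters every untreated difference and the interaction below. The part of the kidney, fat and liver RNA in them was not tested. Among genes with a 2-fold gap after ACTH, 61 of the 249 higher ones that could be compared and 225 of the 668 lower ones were separated the same way untreated, where 2653 and 2597 of the 14352 genes with both values were separated higher and lower. Without that wild-type male, a setting added after seeing the data, these became 89 of 249 and 373 of 668, where 4192 and 4947 of the 14352 were separated, since fewer cross pairs remain. Separated the opposite way untreated were 10 of the 249 and 37 of the 668, and 48 and 80 without that male. The median log2 difference of cholesterol synthesis was -1.0 untreated against -1.31 after ACTH. The median log2 difference of immediate early genes was 0.89 untreated against 1.05 after ACTH, that of fatty acid synthesis -0.50 against -0.87, and that of the X-zone -0.83 against -2.10. As ratios of mean levels (log2, 0.5 CPM added), the untreated medians with and without the wild-type male were -0.99 and -1.14 for cholesterol synthesis, 0.88 and 0.94 for immediate early genes, -0.50 and -0.56 for fatty acid synthesis and -0.83 and -1.17 for the X-zone. Fasn was at 112 and 88.6 CPM in untreated knockout glands and 864 and 715 CPM in the wild type, a log2 difference of -2.97 (SE 0.46) beside -4.60 after ACTH. Rgs2 was at 1434 and 1173 CPM against 453 and 429 CPM untreated, a log2 difference of 1.56 (SE 0.20) beside 1.32 after ACTH.

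Whether genotype altered the response to ACTH was tested as an interaction in all 8 libraries. Of 14690 genes 0 passed an adjusted p of 0.05 (0%, edgeR, smallest adjusted p 1.00), 350 had an unadjusted p under 0.05, and DESeq2 called 4. Of the 5 genes with the smallest p, none of which passed in edgeR, the values of Fxyd1, Hist1h2bc, Sec14l4 and Hhex follow. Fxyd1, a regulator of the sodium pump, was higher in untreated knockout glands, with 21.7 and 25.1 CPM against 7.52 and 9.81 CPM, and lower after ACTH, with 12.6 and 14.0 CPM against 29.2 and 33.6 CPM (interaction -2.67 on the log2 scale, SE 0.52, edgeR adjusted p = 1.00). Hhex, a homeobox factor, was at 39.8 and 35.6 CPM against 28.5 and 37.4 CPM untreated and at 25.7 and 19.4 CPM against 59.0 and 62.2 CPM after ACTH. Hist1h2bc, a histone H2B gene, was at 49.0 and 34.1 CPM against 72.2 and 67.7 CPM untreated and at 8.26 and 12.2 CPM against 56.6 and 72.2 CPM after ACTH. Sec14l4, a lipid-binding protein, was at 1.42 and 3.62 CPM against 9.82 and 10.9 CPM untreated. After ACTH it had 0 counts in both knockout libraries, where 3 counts would be 0.214 and 0.230 CPM. It was then at 5.17 CPM in the wild-type male and 29.1 CPM in the wild-type female, where liver transcripts were found. The part of the liver RNA in this level was not tested.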

How the data were processed

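RNA sequencing gave 8 libraries of mouse adrenal gland, and the 4 ACTH-treated libraries form the comparison. Per the labels' protocols, total RNA was primed with oligo-dT and random hexamers and libraries were made with a directional kit. The submitters' processing notes name the build mm10, Partek 6.6, Bowtie2 2.2.5.0, TopHat2 2.0.13 and FastQC 0.11 without settings. The authors deposited, per the file headers, an estimated count and an RPKM value for each of 28678 RefSeq transcripts. The deposited RPKM values were not used. No source used here says how strand and reads with several matches were handled, so near-identical and overlapping genes are uncertain.

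Estimated counts were summed per symbol to 18846 genes (5323 with more than 1 transcript, 24 symbols turned into dates by a spreadsheet and not named) and rounded. Genes 8 or more times higher in 1 library were set aside, and genes under edgeR's filterByExpr (minimum count 10) removed. Libraries were scaled by TMM (factors 0.985 to 1.02). The test was the quasi-likelihood test of edgeR 4.0.16 in R 4.3.3 with genotype groups in the 4 libraries, with Benjamini-Hochberg adjustment over all genes tested, and the interaction came from all 8 libraries with 4 groups. DESeq2 1.42.0 and limma-voom 3.58.1 were alternatives, beside RLE scaling, total-count scaling, no filter, a sex-label term, all 8 libraries, other limits for setting genes aside and each library left out. Levels are TMM-scaled CPM of tested genes. The code was checked on simulated data. Every pair of the 4 libraries differed beyond sampling noise, with a median squared difference 10.8 to 30.8 times the variance expected from counting alone (Poisson). Pearson's r of the pairs lay between 0.890 and 0.964.

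Named genes are the SIAH genes, the 12 smallest p in each direction among separated genes with an average log2 CPM of 3 or more, up to 4 separated members per list, the 5 smallest interaction p, and further list members named to describe their list after their values were seen. Some single members and genes are not reported here, though counts and medians include them. The members and lists were chosen with earlier results of these data known. Positions and promoters are RefSeq's for GRCm38.p6, the assembly of mm10. Floors (3 counts) cover counting error only.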

Additional observations from a re-analysis of the deposited data

How the results depend on the processing

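The labels give no replicate numbers, so the sex label, 1 male and 1 female per genotype, served as the block: with it edgeR called 0 genes (smallest adjusted p 0.068). The number of genes called after ACTH was 0 under RLE scaling, no filter, limma-voom, all 8 libraries with no sex term, both other limits for setting genes aside, genes with an average log2 CPM of 3 or more, and without each library (range 0 to 0). DESeq2 called 349, and all 8 libraries with the sex label called 2, both lower, of which Aldh1a1 is reported here (adjusted p = 0.0234 in edgeR). The interaction count was 0 in edgeR under each setting tried, also without each library (range 0 to 0), and 4 in DESeq2. Genes not overlapping between genotypes became more numerous without 1 library, since fewer cross pairs remain: 4035 to 5634 higher and 4869 to 6407 lower, and with a 2-fold gap 404 to 1059 higher and 906 to 2400 lower. The highest counts came without the knockout female. With only genes of an average log2 CPM of 3 or more, a setting added after seeing the data as were the counts without a library, 2330 were lower, and 58 higher and 159 lower with a 2-fold gap. With no filter on low counts 1467 were lower with that gap. All 240 genes followed here kept their direction in each of 13 settings that tested them. Since these genes did not overlap between genotypes in the 4 libraries, leaving a library out could hardly reverse them. Their unchanged direction is therefore no separate support. DESeq2 gave an adjusted p under 0.05 for 78 of the 240, all of which missed it in the 4-library edgeR fit. Cholesterol, fatty acid, X-zone and immediate early counts were equal under TMM, total-count and median-of-ratios scaling. Wild-type libraries held up to 2.25 times the counts of the knockout ones, so genes at 0 in the knockout are less well resolved.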

Other observations

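Interferon-stimulated genes, a list put together after the values were seen, were lower in the knockout after ACTH in 26 of 33 tested members and higher in 1, with 9 lower by at least 2-fold in every cross pair, beside 24.4% of all tested genes lower and 4.87% by 2-fold, and a median log2 fold change of -1.19. Untreated, the list's median was -0.91, with the wild-type male that held kidney transcripts included. Herc6, an interferon-induced ligase, was at 4.91 CPM in the knockout male, 6.90 CPM in the knockout female, 21.5 CPM in the wild-type male and 27.5 CPM in the wild-type female, and Ifi27l2a at 3.63 and 8.05 CPM against 28.7 and 25.2 CPM. Both knockout glands lay below both wild-type glands in each of these genes. The 1 higher member was Oas3, an antiviral synthetase, at 1.71 and 2.38 CPM against 0.652 and 0.385 CPM. Macrophage markers summed to 195 and 360 CPM in the knockout and 402 and 370 CPM in the wild type, and their part in the interferon values was not tested. The levels of most of these genes are low, and none passed in edgeR.

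Triglyceride and phospholipid synthesis, also listed after the values were seen, had 12 of 22 tested members lower, 1 higher and 5 lower by at least 2-fold throughout, beside the same 24.4% and 4.87% of all tested genes. Agpat2, which adds the second acyl chain, was at 76.3 and 83.6 CPM against 213 and 196 CPM, and Pcyt2, an enzyme of phosphatidylethanolamine synthesis, at 44.4 and 37.4 CPM against 117 and 133 CPM. Of 10 inhibin and activin genes, again listed after the values were seen, 2 were higher and 2 lower, shares near those of all tested genes (20.3% and 24.4%). Inhbb, the inhibin beta B subunit, was higher like Inha, at 19.9 and 8.13 CPM against 3.79 and 3.47 CPM, the lower ones were Acvr2b and Tgfbr3 (log2 fold changes -1.15 and -0.27), and follistatin (Fst) overlapped between genotypes.

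Among 10290 genes with an average log2 CPM of 3 or more and an untreated value, 58 were higher and 159 lower with a 2-fold gap after ACTH, and 9 and 28 of these had the same gap untreated, where 58 and 104 genes had it in all. Without the untreated wild-type male that held kidney transcripts, 18 and 55 had it, where 126 and 187 genes had it in all. The treated and untreated groups share no library. The 9 higher genes include Rgs2, Inha, Cxcr4 and Cyr61, and also Trem2 and Apod, which were named after their values were seen. The 28 lower genes include Fasn, Acaca, Acss2, Fdps, Tm7sf2, Stard4, Spp1 and the complement component C3. Untreated, C3 stood at 104.9 and 75.2 CPM in the knockout glands against 442 and 1450 CPM in the wild type. After ACTH it was at 36.8 and 100 CPM in the knockout and at 851 CPM in the wild-type male. The wild-type female, which held liver transcripts, had 3686 CPM, and the part of the liver RNA in this level was not tested. Fxyd1 alone had a 2-fold gap in opposite directions with and without ACTH.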
